A study of Glycine max with 6 samples.

Results

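In soybean hairy roots, 196 gene models had a lower level with GmPHD6 overexpression and a higher level with GmPHD6 RNA interference (RNAi) than in the K599 control. They were taken from 25760 gene models that had an OK flag and more than 0 FPKM in all 3 columns and at least 3 FPKM in the highest column, out of 56044 in the table. FPKM is a count of sequenced fragments divided by transcript length in kilobases and by the depth of sequencing. A member had a log2(FPKM + 1) at least 0.8 under control with overexpression and at least 0.8 over control with RNAi. This direction is opposite to the one by which the submitters defined genes downstream of GmPHD6, namely higher with overexpression and lower with RNAi. Members were thus chosen by their measured FPKM in all 3 columns, and the differences from control below describe them and are not tested.

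The libraries came from hairy roots of soybean (Glycine max) strain KF1. Plants of all groups were kept at 28 °C with light for 16 h and darkness for 8 h a day, injected at a height of 2 cm and held in high humidity for about 2 weeks, and roots 2 to 10 cm in length were taken. The labels give 3 groups of 2 libraries each: roots from seedlings injected with Agrobacterium rhizogenes strain K599 carrying the GmPHD6 overexpression construct, roots from the same strain carrying the RNAi construct, and control roots labelled K599, with the genotype wild type. All groups share the K599 bacterium. The labels do not say whether the control bacteria carried an empty vector, which promoter drove either construct, or whether libraries of 1 group were grown from different plants. The authors' table has 1 pooled FPKM per gene and group, with a lower and an upper bound. Its overexpression column is headed G6, read here as short for GmPHD6 because the remaining columns are headed RNAi and K599.

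GmPHD6 belongs to the Alfin-like proteins, a plant family with a PHD finger at the end of the protein. In Arabidopsis, PHD fingers of this family bind methylated histone tails, and family members act on transcription of other genes. RNA interference makes a double-stranded RNA that the plant cuts into small RNAs, which guide the breakdown of matching transcripts. Hairy roots grow where DNA of the bacterium has entered plant cells, and each root usually stems from its own transformation event, so roots can differ in how strongly a construct acts. In such bulk root samples, fewer cells of a type and less RNA per cell cannot be told apart. None of the deposited IDs could be paired with a gene name: 0 were found in the RefSeq gene table for Glycine_max_v4.0. The members are therefore given by ID or position, without functions. The level of GmPHD6 and markers of root tissue were for the same reason not analysed here.

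The size of the group has to be read against each of the 2 conditions of its rule. Of the 25760 eligible genes, 767 (2.98%) were at least 0.8 lower with overexpression than in control, and 2407 (9.34%) were at least 0.8 higher with RNAi than in control. Both conditions were met by the 196 members, 0.761% of the eligible genes. The 2 comparisons share the control libraries, so they are not independent of each other. Over all eligible genes the differences from control had quartiles of -0.16 and 0.20 with overexpression and of -0.27 and 0.37 with RNAi, around medians of 0.02 and 0.07. The RNAi differences were thus the wider of the pair in the whole table.

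**Figure D1:**
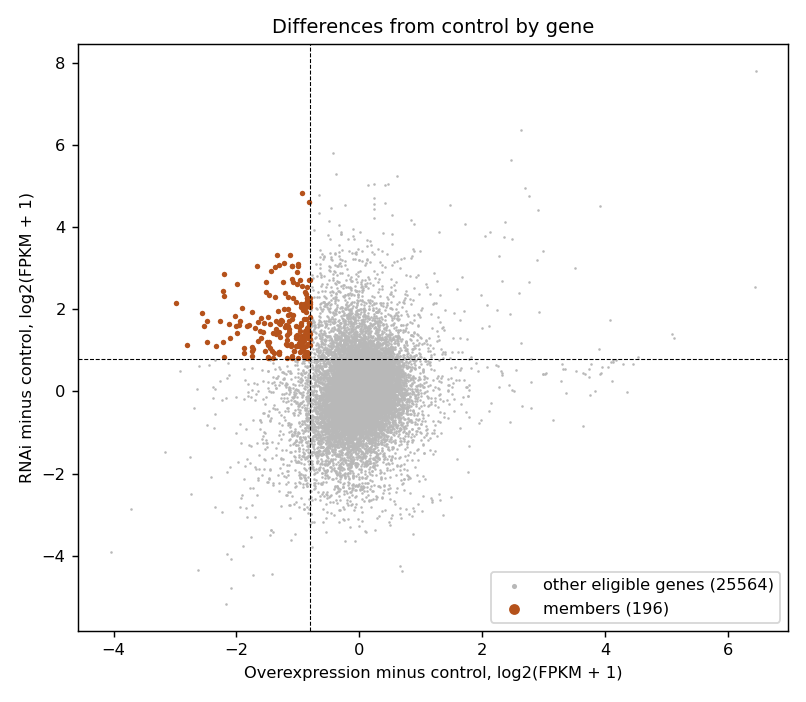
Each point is 1 of the 25760 eligible genes, placed by its log2(FPKM + 1) difference from control with overexpression (x axis) and with RNAi (y axis). Dashed lines mark the thresholds of -0.8 and 0.8; the 196 members fill the upper left corner by construction and lie more densely near the overexpression threshold than far from it.

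Members stood at a median of 3.82 FPKM with overexpression, 43.2 FPKM with RNAi and 10.3 FPKM in control. With overexpression they ranged from 0.0740 to 73.0 FPKM, with RNAi from 3.18 to 784 FPKM and in control from 0.881 to 319 FPKM. Among the eligible genes of the same column, their median rank was the 16.8th percentile with overexpression, the 87.8th with RNAi and the 55.0th in control. In control the members spread over nearly all levels, from the 0.598th to the 99.4th percentile, with quartiles of 4.38 and 24.9 FPKM beside 4.77 and 19.5 FPKM for all eligible genes. Summed over members, the level was 1437 FPKM with overexpression, 12605 FPKM with RNAi and 3771 FPKM in control. These sums are 0.172%, 1.67% and 0.557% of all FPKM in the columns, named in the same order. RNAi was the highest column for all 196 members, as the rule requires.

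**Figure D2:**
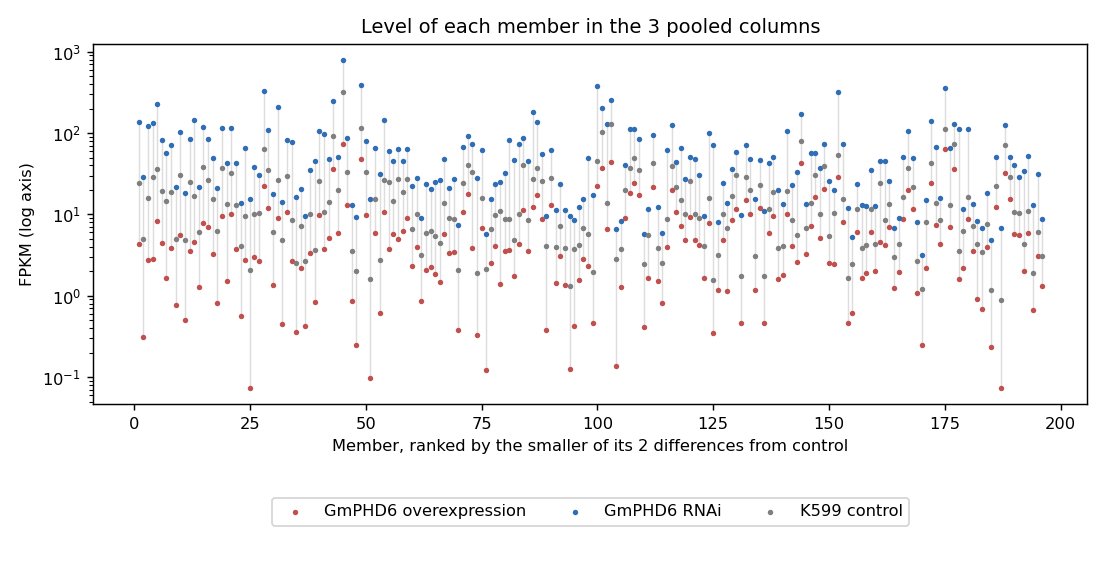
FPKM (log axis) of each of the 196 members with overexpression, with RNAi and in control, ranked along the x axis by the smaller of the 2 differences from control. High and low members stand next to each other along the whole rank: overexpression values run from 0.0740 to 73.0 FPKM and RNAi values from 3.18 to 784 FPKM.

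The median difference from control was -1.10 with overexpression and 1.57 with RNAi on the log2(FPKM + 1) scale, beside 0.02 and 0.07 over all eligible genes. The quartiles of the members were -1.47 and -0.90 with overexpression and 1.14 and 2.08 with RNAi. As plain ratios of FPKM, the median was 0.372 of control with overexpression and 3.18 times control with RNAi. The RNAi difference was the larger in size for 139 members and the overexpression difference for 57. Both differences reached 1 for 100 members (0.388% of eligible genes), 1.5 for 25 (0.0970%) and 2 for 4 (0.0155%). Those 4 genes read 0.309 to 4.37 FPKM with overexpression, 28.9 to 136 FPKM with RNAi and 4.997 to 29.1 FPKM in control. Between the 2 constructs, overexpression minus RNAi had a median of -2.86 and ran from -5.77 to -1.64.

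Most members were thus several-fold apart between the constructs, but a share of them was close to the limits of the rule. In 60 members the smaller difference was under 0.9. The member nearest to the threshold read 1.33 FPKM with overexpression, 8.79 FPKM with RNAi and 3.06 FPKM in control, with an overexpression difference of -0.80. The next read 3.06 FPKM with overexpression, 31.2 FPKM with RNAi and 6.07 FPKM in control. Just outside, a gene at 5.50 FPKM with overexpression, 22.7 FPKM with RNAi and 12.6 FPKM in control missed the RNAi condition at 0.7995, and another at 15.8 FPKM with overexpression, 104 FPKM with RNAi and 28.2 FPKM in control missed the overexpression condition at -0.7988. With these included, 67 genes outside the group came within 0.1 of membership, with both differences at least 0.7 in size.

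Among the members, the lowest overexpression difference, beside a lowest value of -4.05 over all eligible genes, belonged to Glyma.01G204400 on chromosome 1 (53722327 to 53724096). It stood at 2.80 FPKM with overexpression (authors' bounds 1.76 to 3.84), 132 FPKM with RNAi (127 to 138) and 29.1 FPKM in control (26.2 to 31.9). Bounds of the 3 columns did not overlap, and the differences from control were -2.98 and 2.15. Glyma.11G038600 on chromosome 11 (2759948 to 2761506) followed with 3.90 FPKM (2.53 to 5.26) with overexpression, 73.8 FPKM (68.9 to 78.6) with RNAi and 33.0 FPKM (29.7 to 36.4) in control. Its differences were -2.80 and 1.14, so this gene lay far from control with overexpression and not far over the threshold with RNAi. In all, 17 members had an overexpression difference of -2 or below, as did 0.202% of eligible genes (52).

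Among the members, the 2 largest RNAi differences (the highest over all eligible genes was 7.81) belonged to genes whose overexpression difference was under 1 in size. Glyma.17G049900 on chromosome 17 (3785987 to 3788223) stood at 0.345 FPKM (0.0910 to 0.598) with overexpression, 72.2 FPKM (68.6 to 75.7) with RNAi and 1.58 FPKM (1.08 to 2.07) in control. Its RNAi difference was 4.83 and its overexpression difference -0.94. The overexpression value pooled 15 fragments from 1 library and 1 from the other, recovered as described below. These are 0.638 and 0.0506 FPKM, both outside the authors' bounds. With a pseudocount of 0.1 the overexpression difference was -1.92, because a pseudocount of 1 understates changes at this level. Glyma.13G109800 on chromosome 13 (22363969 to 22366279) stood at 1.605 FPKM (1.07 to 2.14) with overexpression, 111 FPKM (106 to 115) with RNAi and 3.60 FPKM (2.87 to 4.33) in control, with differences of 4.60 for RNAi and -0.82 for overexpression. RNAi differences of at least 2 were found in 56 members, beside 1.79% of eligible genes (460), and of at least 3 in 12 members, beside 0.528% (136). The rule used this contrast, so members had to be more frequent past these limits than eligible genes at large.

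The members differed by their level in control. In the 24 members under 3 FPKM in control, the median ratio to control was 0.193 with overexpression and 5.98 with RNAi. From 3 to 10 FPKM in control, 67 members had median ratios of 0.372 and 3.21, and from 10 to 30 FPKM, 71 members had 0.418 and 3.21. At 30 FPKM or more, 34 members had 0.421 and 2.65. Because the rule works on FPKM + 1, a low gene needs a more extreme ratio to enter, so these ratios are partly set by it. The same 24 members met the demand for 3 FPKM through the RNAi column alone. That demand took out no gene that met both differences. Overexpression left 36 members under 1 FPKM, and 18 of these stood at 10 FPKM or more with RNAi.

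The bounds of the authors give the precision of these values. Taking each bound to be 2 SD of counting error away, a number of fragments per library behind each value can be computed. This reading does not hold for each value, since fragments did not always scale with FPKM within a gene. A member on chromosome 11 (27512869 to 27516105) had 210 per library at 12.5 FPKM with overexpression and 913 at 27.4 FPKM in control. The numbers are thus estimates and not plain counts. For members the median was 60.6 fragments per library with overexpression, 650 with RNAi and 198 in control, beside 210, 230 and 253 for all eligible genes. Bounds were apart in both contrasts and in the direction of the rule for 184 members, against 3.77% of eligible genes; the rule used the same values, so the count only describes their precision. Taken singly, overexpression bounds lay below control bounds in 11.6% of eligible genes and RNAi bounds above them in 28.7%. The other 12 members overlapped between overexpression and control, and 6 of them also between RNAi and control. Fewer than 10 fragments per library lay behind the overexpression value of 32 members and behind the control value of 9.

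A few members rested on very little. In 12 members, 1 FPKM in control corresponded to fewer than 5 fragments per library, where the median member had 21.2. This measure grows with transcript length, and not all 12 had few fragments. A member on chromosome 12 (16796003 to 16803578) had 28.2 per library with overexpression, 106 with RNAi and 58.0 in control. The lowest number with overexpression, 0.208 per library, belonged to a member on chromosome 18 (53105840 to 53110267) that shares a locus with another model. By fragments per FPKM the most extreme was a model of 187 bp on chromosome 9 (44067415 to 44067601). It stood at 3.55 FPKM with overexpression, 45.7 FPKM with RNAi and 8.60 FPKM in control. These values corresponded to 0.5422 fragments per library with overexpression, 6.90 with RNAi and 2.01 in control. A member on chromosome 14 (1615783 to 1617090), eighth by its smaller difference, stood at 3.89 FPKM with overexpression, from 1.82 fragments per library, at 70.5 FPKM with RNAi, from 23.8, and at 18.9 FPKM in control, from 9.54. Without members under 3 fragments per library with overexpression 179 remained, and without those under 10 per library in control 187.

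For many of the lowest values the fragments in each of the 2 pooled libraries could be recovered. There the computed number was a whole number of one step plus a whole number of another, a step for each library. Not each low value was of this form: the lowest, 0.208 with overexpression, was under both steps of that column, 0.456 and 0.542. Library A of a group is the one with the smaller step and library B the one with the larger; neither can be matched to a replicate number. Library values were recovered for 44 members with overexpression, 6 with RNAi and 15 in control. All 15 were recovered in overexpression and control, and 6 of them in all 3 columns. These are members with few fragments, some of them at 10 FPKM or more in control, so they do not stand for the group.

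In 10 of these 15 members both overexpression libraries lay below both control libraries, and in 5 the libraries overlapped. Of all 440 eligible genes recovered in these columns, 16.6% had both overexpression libraries below both control libraries. The rule selected members for a low overexpression mean, so nothing follows from that contrast. In 5 of the 6 members with all columns, both RNAi libraries lay above both control libraries, against 26.8% of 306 eligible genes. The rule also selected members for a high RNAi mean, so nothing follows from this contrast either.

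The member on chromosome 14 had 4 and 0 fragments in overexpression libraries A and B, 29 and 19 with RNAi, and 5 and 14 in control. Scaled to FPKM, these were 7.78 and 0 with overexpression, 84.0 and 56.9 with RNAi, and 9.69 and 28.1 in control. The libraries did not overlap between groups, yet the overexpression value came from 1 library. The authors' bounds did overlap between overexpression (0 to 9.65) and control (6.66 to 31.2). A member on chromosome 8 (14151103 to 14151373) had 0 and 1 fragments with overexpression, 11 and 16 with RNAi, and 5 and 4 in control, again without overlap. In other members the libraries overlapped as well. A member on chromosome 9 (49758318 to 49758531) had 0 and 1 fragments with overexpression, 7 and 3 with RNAi, and 5 and 0 in control. Its control libraries spanned those of overexpression. On chromosome 13 (37000604 to 37000838), another had 7 and 1 fragments with overexpression against 6 and 14 in control, and one overexpression library stood above the lower control library.

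Closer overexpression libraries were seen in the member on chromosome 15 from 48540266 to 48541595. It had 3 and 3 fragments with overexpression against 12 and 14 in control, that is 0.427 and 0.508 FPKM against 1.498 and 1.81 FPKM. Both overexpression libraries were near each other and under both control libraries. With so few fragments its bounds still overlapped, at 0 to 1.01 with overexpression and 0.735 to 2.57 in control. A member on chromosome 17 (8363585 to 8364532) had 2 and 3 fragments with overexpression against 16 and 16 in control. Its bounds were narrowly apart, at 0 to 0.526 and 0.582 to 1.75.

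**Figure D3:**
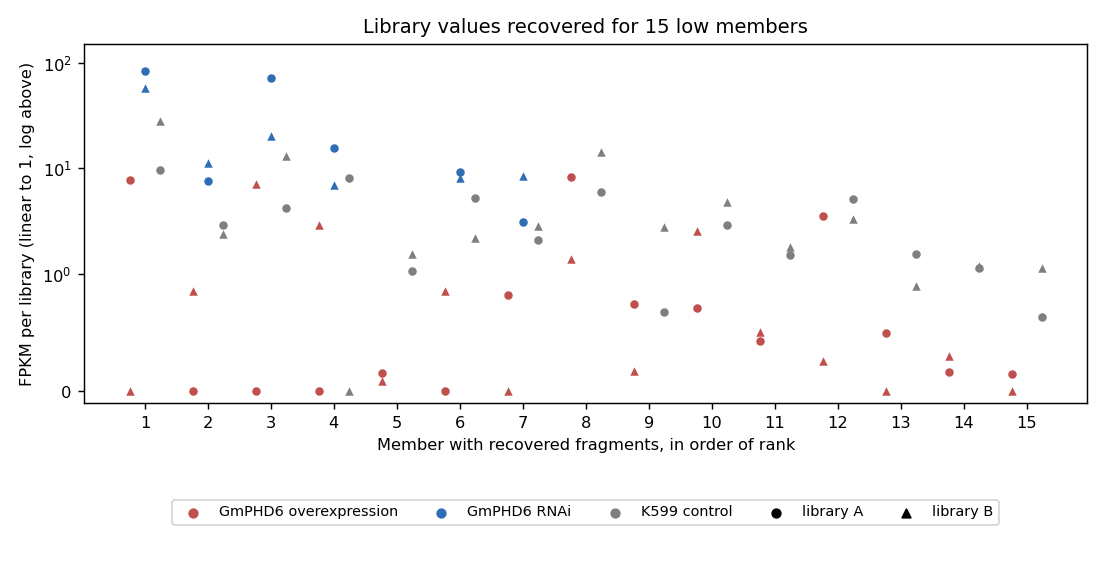
FPKM per library (linear to 1, log above) for the 15 members with recovered fragments in overexpression and control, in order of rank, with RNAi where it was recovered (6 members). Circles are library A and triangles library B; in 10 members both overexpression libraries lie below both control libraries, and several overexpression values are at 0.

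In some members the overexpression libraries differed from each other. Of the 44 members recovered there, 11 had 0 fragments in 1 library. The libraries were more than 3 times apart in 20, these 11 included. The same counts over other eligible genes are not given here, so nothing particular to members follows from them. Library A was the higher in 24 and library B in 20, so the same library was not low throughout. With 5 to 25 fragments per library, A was the higher in 14 of 22 members, beside 238 of 444 other eligible genes. The median log2 ratio of A to B was 0.65 in these members and 0.12 in those other genes. Under 5 fragments per library, A was the higher in 10 of 22 members, beside 77 of 163 other eligible genes. Among members of 5 to 25 fragments per library, 11 of 22 (50%) were over 2-fold apart between the overexpression libraries. Among other eligible genes the count was 167 of 444 (37.6%), in both cases with 0.5 fragments added to each library. With so few fragments, counting error alone spreads such pairs, and its part in this spread was not tested.

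The position of the members was not used by the rule. They lay on all 20 chromosomes, and none lay on an unplaced scaffold. Chromosome 2 held 17 members among 1435 eligible genes (1.18%), chromosome 11 held 15 of 1304 (1.15%) and chromosome 17 held 15 of 1316 (1.14%). At the other end, chromosome 19 held 2 of 1236 (0.162%) and chromosome 20 held 3 of 1121 (0.268%). No test of this distribution was made.

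Some members were neighbours. With at most 1 other gene model between them, 22 members formed 10 runs, 9 pairs and 1 run of 4. No such count is given here for other sets of genes, and whether 22 is many was not tested. The run lay on chromosome 17 between 5028346 and 5042804, in 14459 bp. Its models stood together at 19.2 FPKM with overexpression, 153 FPKM with RNAi and 56.7 FPKM in control.

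The 4 models of the run, taken in chromosome order, showed the same order of columns at different levels. The first read 2.95 FPKM (1.78 to 4.13) with overexpression, 37.8 FPKM (34.5 to 41.2) with RNAi and 10.1 FPKM (8.51 to 11.8) in control. The second was the lowest, at 1.27 FPKM (0.730 to 1.80) with overexpression, 21.9 FPKM (19.8 to 24.04) with RNAi and 6.14 FPKM (5.07 to 7.20) in control. The third stood at 3.36 FPKM (2.47 to 4.26) with overexpression, 35.4 FPKM (32.6 to 38.2) with RNAi and 10.1 FPKM (8.71 to 11.6) in control. The fourth was the highest in each column, at 11.6 FPKM (10.01 to 13.2) with overexpression, 57.9 FPKM (54.5 to 61.2) with RNAi and 30.3 FPKM (27.96 to 32.6) in control, and had the smallest RNAi difference of the 4, 0.91 against 1.68 to 1.80. No bounds overlapped between columns within any of these models. Their spans were alike, from 1442 to 1606 bp. Whether they are copies of each other, and so could share fragments, was not analysed here.

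The pattern did not extend evenly to the models beside the run. The model just before it stood at 3.11 FPKM with overexpression, 7.88 FPKM with RNAi and 3.47 FPKM in control, and its overexpression bounds overlapped those of control. The one before that was higher than control with both constructs, at 32.6 FPKM with overexpression, 67.5 FPKM with RNAi and 5.97 FPKM in control. The model just after the run read 0.213 FPKM with overexpression, 0.214 FPKM with RNAi and 1.34 FPKM in control, and in both construct columns the bounds lay below those of control. The last 3 of the 5 models shown after it differed from control by at most 0.23 with overexpression and 0.58 with RNAi in size.

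**Figure D4:**
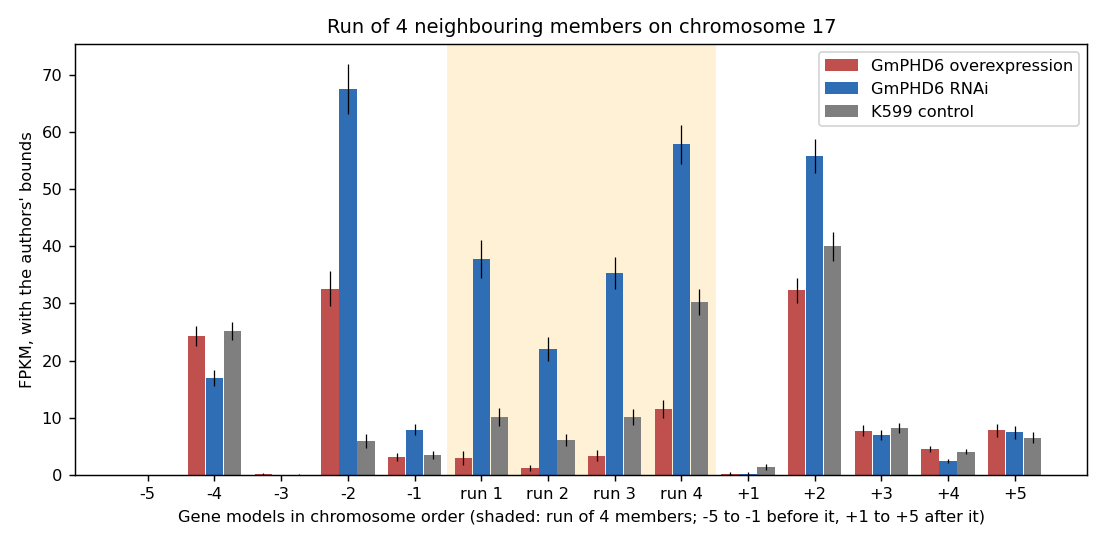
FPKM with the authors' bounds for the run of 4 members on chromosome 17 (shaded) and for 5 gene models on either side, in chromosome order. Within the run RNAi is the highest and overexpression the lowest column in each model; among the flanking models the same order appears in the model just before the run, where overexpression and control bounds overlap, and in the second model after it, at 32.3 FPKM with overexpression, 55.8 FPKM with RNAi and 40.0 FPKM in control.

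The pairs showed a wide range of levels. The most abundant lay on chromosome 8 between 3581814 and 3590322, at a summed 51.4 FPKM with overexpression, 398 FPKM with RNAi and 123 FPKM in control, most of it from its first model. A pair on chromosome 16 between 33925884 and 33930566 summed to 39.8 FPKM with overexpression, 276 FPKM with RNAi and 100.1 FPKM in control. On chromosome 2, between 4969682 and 4975335, a pair read 26.1 FPKM with overexpression, 232 FPKM with RNAi and 74.7 FPKM in control. Its models were close in control, at 37.8 and 36.9 FPKM, and apart with overexpression, at 7.86 and 18.2 FPKM. The pair on chromosome 6 between 11160065 and 11162877 has 1 locus in the table for both models, so the split of fragments between them is uncertain. In all, 5 members share a locus with another gene model.

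The nearest eligible genes on either side of members, at any distance and not members themselves, numbered 366. Of these, 15 (4.10%) were at least 0.8 lower with overexpression than in control. The share was 2.23% of all 25564 eligible genes outside the group, the 366 included. At least 0.8 higher with overexpression were 5 (1.37%), beside 1.95%. With RNAi 55 (15.03%) were at least 0.8 higher than control, beside 8.65%, and 26 (7.10%) at least 0.8 lower, beside 9.17%. Their median differences were -0.01 with overexpression and 0.15 with RNAi, beside 0.02 and 0.07. Neighbours can share fragments, or be copies of a member, and the part of either in these shares was not tested.

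Members were short gene models. Their span on the chromosome, from start to end as deposited, had a median of 2009 bp and quartiles of 1123 and 3197 bp, beside a median of 3911 bp and quartiles of 2332 and 6029 bp for the other eligible genes. Spans under 2000 bp made up 49.5% of members (97) and 19.6% of the others. None of the members exceeded 10000 bp, beside 7.96% of the others; the longest member spanned 8738 bp. The number of control fragments per library behind 1 FPKM grows with transcript length. It had a median of 21.2 for members and 26.4 for the others, so the gap was smaller in this measure than in span.

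Shorter spans were seen at each level in control. Medians were 1330 bp for the 23 members and 3474 bp for others at 1 to 3 FPKM, 1874 and 4412 bp at 3 to 10 FPKM, 2304 and 3987 bp at 10 to 30 FPKM, and 1988 and 2820 bp at 30 FPKM or more. They were also seen in genes that met 1 condition of the rule. The 571 genes lower with overexpression but not higher with RNAi had a median of 2230 bp, and the 2211 genes higher with RNAi but not lower with overexpression had 2747 bp. The 73 genes of the opposite group, higher with overexpression and lower with RNAi by the same thresholds, had 1437 bp. Short models are therefore not shown to be particular to the members, and no test across genes was made.

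**Figure D5:**
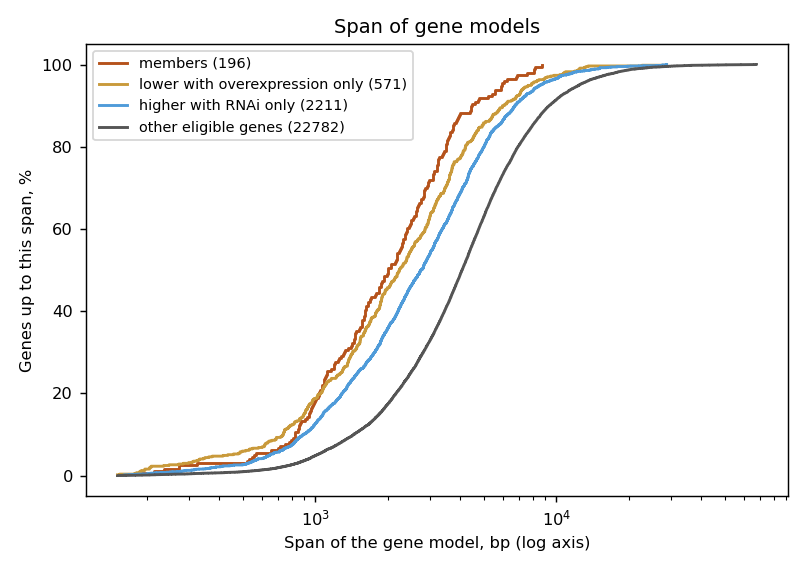
Share of genes (percent) up to a given span in bp (log axis) for the members, for genes that met only 1 condition of the rule and for the other eligible genes. The curve of the members lies left of that of the other eligible genes, and those of both single-condition groups lie between them over most of the range.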

How the data were processed

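The libraries were made from total RNA of hairy roots with an Illumina RNA-seq kit, per the labels' protocols. The authors deposited FPKM values with bounds, pooled over the 2 libraries of each group per the file headers; TopHat is named in the submitters' processing notes. How the values were quantified, at what confidence the bounds were set and whether strand was used is not stated in the labels. IDs carry the annotation tag Wm82.a2.v1, and positions are those of the table; spans may be off by 1 bp, since the numbering of starts is not stated.

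From these values, differences of log2(FPKM + 1) were computed in Python 3.11.15 with pandas 2.3.3 and numpy 2.4.6. The members and lists were chosen with earlier results of these data known. The design allowed for a fit across libraries; with pooled columns none was made, and no p-value is given. The 40 lists of gene descriptions could not be applied because no ID has a description. Fragments computed from the bounds summed to 14651386 per library with overexpression, 15340518 with RNAi and 15226738 in control. They rest on bounds read as counting error only, a reading that does not hold for each value. Library fragments were accepted where 1 pair of whole numbers lay within the rounding error and chance would match under 0.05 of values. With overexpression this was possible up to about 32.3 fragments per library. The recovery was tested on simulated data. Named by ID are the 2 members with the lowest overexpression difference and the 2 with the highest RNAi difference, and runs of neighbours by position; other members given by position were chosen after their values were seen. Alternatives were other pseudocounts, thresholds, level filters, scalings, bounds, shared loci and libraries left out.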

Additional observations from a re-analysis of the deposited data

How the results depend on the processing

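The number of members depends on where the rule is set: 310 genes met it with a pseudocount of 0.1, 100 with thresholds of 1 and 376 with thresholds of 0.6, against 196. These changes follow from the settings themselves, since a smaller pseudocount gives low genes larger differences. Under the other settings the count ran from 171 (at least 10 FPKM in the highest column) to 244 (pseudocount 0.5). Quantile normalization gave 191 genes, of which 173 were members, and scaling to the upper quartile gave 185, all of them members. Each setting selected its genes again by both differences, so the signs of the medians were fixed; they ran from -1.35 to -0.85 with overexpression and from 1.40 to 1.70 with RNAi, and say nothing of stability. Of 32 recomputed differences of the members named by ID, 0 changed sign and 1 moved by over 1.5 times (Glyma.17G049900 with overexpression, -1.92 with a pseudocount of 0.1). Another pseudocount cannot change a sign, and the upper quartile factors ran only from 0.974 to 1.01. These members were also named for large differences, so the kept signs say nothing of stability. Runs of neighbours held 20 members with no gene model between them and 28 with at most 3, against 22. With each library left out in turn, 14 to 15 of the 15 recovered members were lower with overexpression than in control, the exception arising without control library A, and all 6 were higher with RNAi; these members were selected for that direction in the same libraries, so this is a description only. The demands on fragments were added after seeing the data. No paired analysis was possible because the columns carry no replicate numbers. Depth limits the low members most: 127 had under 100 fragments per library with overexpression.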

Other observations

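Beside the 196 members, 16 gene models met the other demands but were listed at 0 with overexpression. They stood at 3.45 to 90.7 FPKM with RNAi and 1.08 to 20.1 FPKM in control. All had an OK flag in the 3 columns, but the rule demands more than 0 FPKM in each. They therefore got no fold and were not counted as members. What each 0 stands for was not analysed here.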
